A study of Mus musculus with 6 samples.

Results

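Peroxiredoxins and the thioredoxin system are a thiol-based defence against peroxides. A peroxiredoxin reduces hydrogen peroxide with a reactive cysteine, thioredoxin reduces the oxidised peroxiredoxin, and thioredoxin reductase, a selenoprotein, restores thioredoxin with electrons from NADPH. The cytosol and the mitochondria each hold a chain of their own, and erythroid cells are known for large amounts of the cytosolic peroxiredoxin Prdx2. The 10 genes considered here are Prdx1 to Prdx6, Txn1, Txn2, Txnrd1 and Txnrd2. They were chosen by name, through the probe sets that the platform annotation pairs with 1 gene symbol. This gave 7 genes (Prdx2, Prdx3, Prdx4, Txn1, Txn2, Txnrd1 and Txnrd2) with 19 probe sets, of 18193 genes with 34945 such probe sets in all. The 5 probe sets of Prdx1 carry the symbol of the pseudogene Gm21399 as well and fall outside the rule: in a test of all named probe sets 0 of 5 were called, against 0.0223%, and 4 of 5 had high-ROS arrays all above low-ROS arrays, against 7.18%. Prdx5 and Prdx6 are not analysed here.

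The 6 one-colour arrays measured total RNA of common myeloid progenitors (CMP), bone marrow cells that precede the granulocyte-monocyte and the megakaryocyte-erythrocyte progenitors. Cells came from marrow of C57BL6 mice, whose age the labels do not give, and were sorted by fluorescence of H2-DCFDA, a dye that lights up when reactive oxygen species (ROS) oxidise it. The low-ROS and the high-ROS group, 3 arrays each, held fractions of 15% to 20% of all CMP, and the series asks what ROS do in the step from CMP to the megakaryocyte-erythrocyte progenitor. Nothing in the labels ties a sample to a mouse or a sort of its own. The p-values hence reflect the spread of these samples alone, and that spread may be technical.

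Array medians lay between 40.4 and 42.5 signal units, and the correlation between arrays over all genes ranged from 0.975 to 0.991. The Gapdh control probe sets give a 3' to 5' ratio, a measure of RNA integrity and labelling. It was 2.54 to 3.19 on the low-ROS and 2.997 to 4.53 on the high-ROS arrays, with the highest value on high-ROS replicate 3. The ratio thus partly followed the group. Fits below with this ratio as a covariate therefore cannot fully tell the ratio and the ROS group apart. All 9 listed markers of the CMP gate (among them Kit, Cd34, Fcgr3 and Mpo) had mean signals above the array median. By their means 4 were higher and 5 lower in high-ROS CMP, with 0 called. Gata2, at 484 ± 11.3 (SD, n = 3) for low-ROS and 291 ± 49.2 for high-ROS, had every low-ROS array above every high-ROS array. So did Kit, at 642 ± 96.9 and 545 ± 19.2, with the nearest pair 1.74 units apart. The other gate markers had overlapping groups. Genes of maturing neutrophils also had mean signals above the array median, all 6 of 6 listed. Mean S100a8 signals were 12746 ± 494 (SD, n = 3) for low-ROS and 12643 ± 225 for high-ROS. By their means all 6 lay lower in high-ROS CMP, and their summed signals overlapped, at 48744 to 53219 and 49040 to 50891. Ltf, at 5976 ± 212 and 5474 ± 264, and Ngp, at 7613 ± 200 and 7264 ± 77.5, had groups that did not overlap. Summed marker signals of megakaryocytes lay lower in high-ROS CMP (1323 to 1333 against 741 to 992, 3 of 6 lower) and those of monocytes and macrophages higher (2386 to 2796 against 3433 to 3867, 5 of 7 higher), with 0 markers called. Most of the megakaryocyte gap was Pf4, platelet factor 4, at 1107 ± 41.6 and 666 ± 116 (SD, n = 3), and without it the sums overlapped, at 198 to 263 and 164 to 240.2. Itga2b, which is dim and adds little to the sum, also had all low-ROS arrays above all high-ROS arrays. Its means were 64.7 ± 14.6 and 31.9 ± 5.18 (SD, n = 3). The 3 megakaryocyte markers with higher means in high-ROS CMP had overlapping groups. Among the monocyte and macrophage markers, Csf1r, at 1186 ± 199 and 1660 ± 160 (SD, n = 3), had every high-ROS array above every low-ROS array. The same held for Ms4a6c, at 599 ± 36.3 and 1015 ± 164, and the others of that class had overlapping groups. The part of these cell types in the values below was not tested. In bulk samples, fewer cells of a type and less RNA per cell cannot be told apart.

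None of the 7 genes passed the test between high-ROS and low-ROS CMP. With the threshold at an adjusted p of 0.05 (limma with Benjamini-Hochberg adjustment over all genes) 0 of 7 members were called, where 0.055% of all genes were, and the smallest adjusted p among the members was 0.638. Of the 7, 3 had the higher mean in high-ROS CMP, 4 had the lower, and 0 reached an unadjusted p under 0.05, against 7.81% of all genes. The median log2 difference (high-ROS minus low-ROS, on the scale of log2 of the signal plus 16, which understates the change of dim probe sets) was -0.04 over the members and 0.02 over all genes. Tested probe set by probe set, 0 of 19 were called, against 0.02% of all single-symbol probe sets. At an unadjusted p under 0.05 there were 3 of 19, against 7.31%, and 3 of 19 had groups that did not overlap, against 13.2%. Those under 0.05 were 1416166_a_at and 1435731_x_at, both of Prdx4, and 1430979_a_at of Prdx2. Probe sets of 1 gene are not independent of each other, so the 19 are not 19 separate readings. The values below come from this test of single probe sets.

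**Figure D1:**
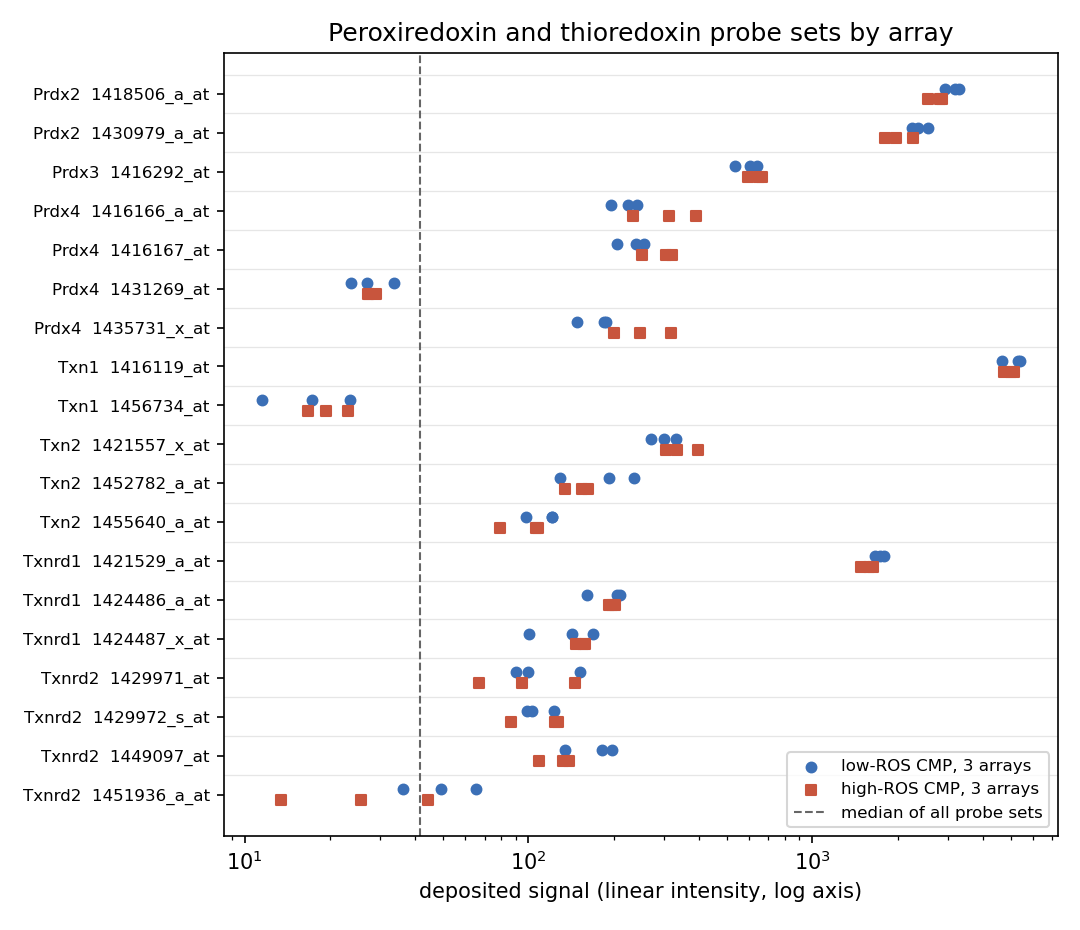
Deposited signal of each of the 19 member probe sets (rows) on the 6 arrays, on a log axis; circles are the 3 low-ROS and squares the 3 high-ROS arrays, and the dashed line is the median of all probe sets. The groups overlap in all rows except 3: Prdx2 1418506_a_at and Txnrd1 1421529_a_at, with low-ROS above high-ROS, and Prdx4 1435731_x_at, with high-ROS above low-ROS. Different probe sets bind with different strength, so rows cannot be ranked against each other.

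Among the peroxiredoxins, Prdx2, which clears peroxide in the cytosol, had lower means in high-ROS CMP on both of its probe sets. The signals of 1418506_a_at were 2926, 3188 and 3288 on low-ROS replicates 1 to 3 and 2809, 2864 and 2542 on high-ROS replicates 1 to 3. Every low-ROS array thus lay above every high-ROS array. The means were 3134 ± 187 (SD, n = 3) and 2738 ± 172, a log2 difference of -0.19 (SE 0.0925, adjusted p = 0.687, limma), with a 95% interval from -0.40 to 0.01, that is, from 1.32-fold lower to 1.01-fold higher. The other probe set, 1430979_a_at, read 2556, 2241 and 2357 in low-ROS and 2266, 1969 and 1802 in high-ROS CMP. There the first high-ROS array lay above the second low-ROS array, so the groups overlapped, and the log2 difference was -0.25 (SE 0.1095, adjusted p = 0.675).

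Of the erythroid markers, Slc4a1, the band 3 anion exchanger of red cells, and Epor lay lower beside Prdx2. Without Slc4a1 the others did not separate the groups as a sum. The summed signal of the 6 measured of 8 listed erythroid markers ran from 10816 to 11125 on the low-ROS and from 9162 to 10322 on the high-ROS arrays, without overlap. Of the 6, 4 were lower and 2 higher by their means, and 0 passed the test. Slc4a1 and Epor had every low-ROS array above every high-ROS array, and the others had overlapping groups. The Epor means were 157 ± 19.3 and 120 ± 12.3 (SD, n = 3), with the nearest pair of arrays 0.87 units apart. Most of the gap in the sum was Slc4a1, at 6109 ± 48.4 and 4985 ± 554 (SD, n = 3). Without it the sums overlapped, at 4714 to 5027 and 4465 to 4956. The probe set that stood for the alpha globin gene Hba-a1 read near background, at 2.55 and 4.58. That reading does not show whether globin RNA was absent, since a probe set can fail to detect its transcript. The part of erythroid cells in the Prdx2 values was not tested. Once the log2 Gapdh ratio entered the fit, the log2 difference of 1418506_a_at was -0.07 (adjusted p = 0.935) and that of 1430979_a_at was -0.21 (adjusted p = 0.871).

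Prdx4, the peroxiredoxin of the endoplasmic reticulum, had higher means in high-ROS CMP on 3 of its 4 probe sets. The signals of 1435731_x_at were 149, 187 and 185 on low-ROS replicates 1 to 3 and 200.5, 246 and 317 on high-ROS replicates 1 to 3. The high-ROS arrays were all above the low-ROS arrays, by 13.6 units between the nearest pair. The log2 difference was 0.50 (SE 0.197, adjusted p = 0.655), with a 95% interval from 1.05-fold to 1.91-fold higher. It did not pass the threshold after adjustment, and its unadjusted p was 0.0284.

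The other two bright enough to read gave 0.45 (SE 0.196, adjusted p = 0.675) for 1416166_a_at and 0.30 (SE 0.165, adjusted p = 0.712) for 1416167_at. On 1416166_a_at the signals were 195, 241 and 224 in low-ROS and 233, 313 and 390 in high-ROS CMP, and on 1416167_at they were 205, 255 and 239 and then 250.1, 319 and 304. On both, the only overlap was the first high-ROS array against the second low-ROS array. The highest signals of 1416166_a_at and 1435731_x_at stood on high-ROS replicate 3, where the Gapdh ratio also peaked. Without that array their log2 differences were 0.28 and 0.34. With the Gapdh ratio in the fit, 1416166_a_at had 0.33, 1435731_x_at 0.39 and 1416167_at 0.37. The fourth probe set, 1431269_at, lay below the array median on every array, at 23.8 to 33.7, and had a log2 difference of -0.0040 (SE 0.195).

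Plasma cells make much Prdx4, and their markers did not separate the groups. The summed signal of the 4 plasma cell markers was 3009 to 3216 in low-ROS and 2742 to 3887 in high-ROS CMP, with 2 of 4 higher. Jchain, the joining chain of secreted antibodies, had 1235 ± 77.9 and 1299 ± 496 (SD, n = 3). The part of such cells in the Prdx4 values was not tested.

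Prdx3, the mitochondrial peroxiredoxin, was read by 1 probe set. Its signals were 534, 639 and 603 on low-ROS replicates 1 to 3 and 595, 647 and 663 on high-ROS replicates 1 to 3. The groups overlapped, with low-ROS replicate 1 the lowest array. The log2 difference was 0.10 (SE 0.127, adjusted p = 0.886), and its 95% interval ran from 1.13-fold lower to 1.30-fold higher. Without low-ROS replicate 1 the difference was 0.03.

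Of the thioredoxins, Txn1, the cytosolic form, had the narrowest interval of the 19 probe sets. The signals of 1416119_at were 4644, 5308 and 5364 in low-ROS and 4734, 5145 and 5017 in high-ROS CMP. The high-ROS values all lay within the low-ROS range. The log2 difference was -0.04 (SE 0.0859, adjusted p = 0.942), and its interval reached from 1.17-fold lower to 1.11-fold higher. Quantile normalization turned the sign, to 0.02. The second probe set, 1456734_at, was near background at 11.5 to 23.5.

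Txn2, the mitochondrial thioredoxin, had 3 probe sets that did not go one way. The signals of 1421557_x_at were 330.3, 299 and 271 in low-ROS and 333, 306 and 396 in high-ROS CMP, a log2 difference of 0.19 (SE 0.157). Those of 1452782_a_at were 192, 235 and 130 and then 162, 135 and 154, a log2 difference of -0.25 (SE 0.219), and those of 1455640_a_at were 98.2, 121 and 121 and then 108, 106 and 79.6, a log2 difference of -0.19 (SE 0.203). All 3 had overlapping groups, with adjusted p of 0.813, 0.825 and 0.859. High-ROS replicate 3 was the highest array on the first and the lowest on the last. Once the Gapdh ratio entered the fit, the first became -0.04, the second -0.45 and the last 0.05, so no direction can be given for this gene.

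The reductases lay lower in high-ROS CMP on the probe set that stood for each gene. Txnrd1, the cytosolic reductase, had signals of 1792, 1730 and 1666 on 1421529_a_at in low-ROS and 1584, 1636 and 1477 in high-ROS CMP. The groups did not overlap, though the nearest pair was only 30.3 units apart. The means were 1729 ± 63.0 (SD, n = 3) and 1566 ± 80.8, a log2 difference of -0.14 (SE 0.0972, adjusted p = 0.760), with an interval from 1.28-fold lower to 1.05-fold higher. Its other probe sets, 1424486_a_at and 1424487_x_at, had log2 differences of 0.04 (SE 0.1697) and 0.17 (SE 0.206), with overlapping groups. On both, low-ROS replicate 1 was the lowest array, at 161 and 101, and without it the differences were -0.08 and -0.01.

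Txnrd2, the mitochondrial reductase, had the largest difference of the 7 genes on the probe set that stood for the gene. The signals of 1449097_at were 197, 181 and 135 in low-ROS and 109, 138 and 132 in high-ROS CMP. Only high-ROS replicate 2 lay above a low-ROS array, replicate 3. The means were 171 ± 32.3 (SD, n = 3) and 126 ± 15.3, a log2 difference of -0.38 (SE 0.199, adjusted p = 0.698), with an interval from 1.77-fold lower to 1.04-fold higher.

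The remaining Txnrd2 probe sets were dimmer, and on 2 of these 3 the low-ROS arrays had the higher mean log2 value. The signals of 1451936_a_at were 65.3, 49.4 and 36.2 in low-ROS and 44.2, 25.6 and 13.4 in high-ROS CMP, from near the array median to below it, and gave a log2 difference of -0.64 (SE 0.290, adjusted p = 0.679). With signals this low the size of the difference is not set against those of the other probe sets, and without high-ROS replicate 3 it was -0.38. The signals of 1429971_at spanned 67.04 to 152 and those of 1429972_s_at 86.7 to 127, with log2 differences of -0.16 (SE 0.277) and 0.04 (SE 0.209). That of 1429971_at turned to 0.04 without low-ROS replicate 1 and to 0.07 without high-ROS replicate 2. With the Gapdh ratio in the fit all 4 Txnrd2 probe sets had negative differences: 1429971_at had -0.77 (SE 0.249, adjusted p = 0.788), 1449097_at -0.49, 1451936_a_at -0.53 and 1429972_s_at -0.23.

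**Figure D2:**
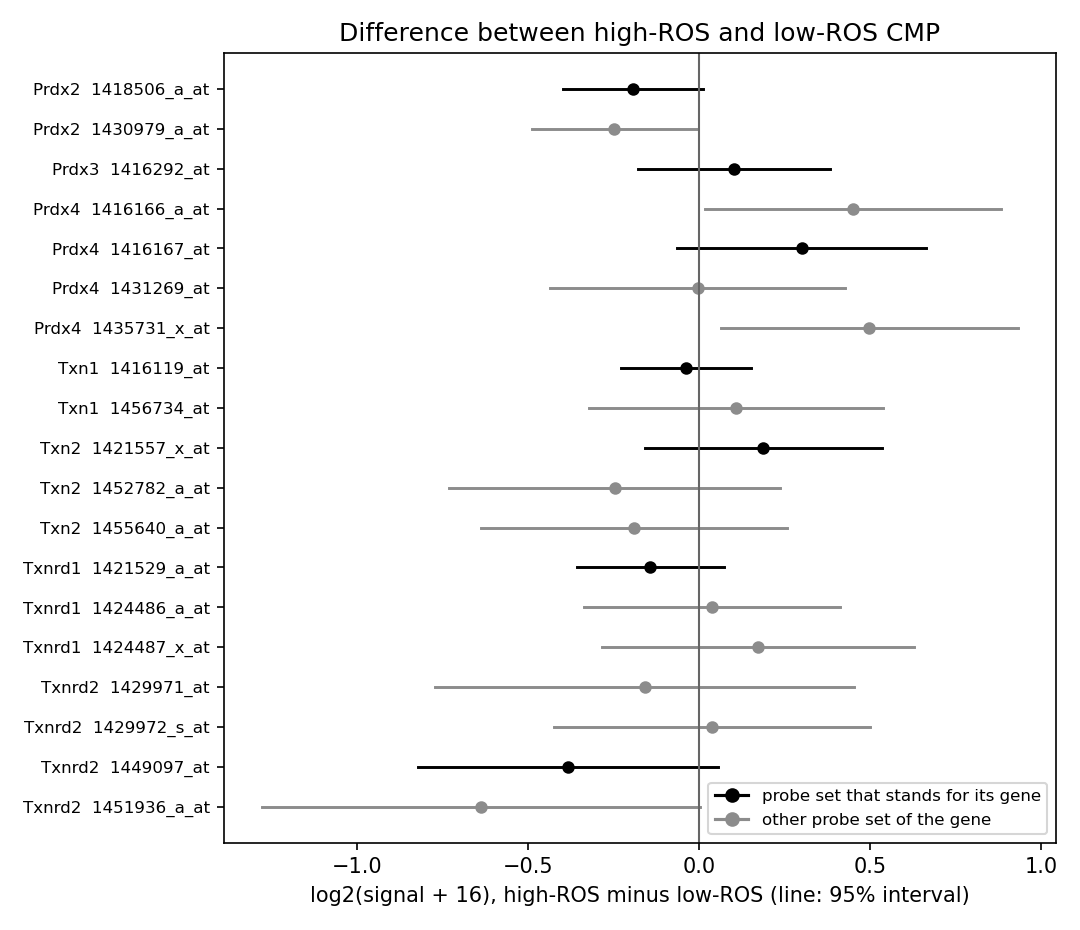
Log2 difference, high-ROS minus low-ROS, of each member probe set (points) with its 95% interval (lines), on the scale of log2 of the signal plus 16; black marks the probe set that stood for its gene and grey the others. The points run from -0.64 (Txnrd2 1451936_a_at) to 0.50 (Prdx4 1435731_x_at), the probe sets of Prdx4, Txn1, Txn2, Txnrd1 and Txnrd2 lie on both sides of 0, and none passed after adjustment.

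By compartment, the values were as follows. In the cytosol the probe sets that stood for Prdx2, Txn1 and Txnrd1 had log2 differences of -0.19, -0.04 and -0.14. In the mitochondria those for Prdx3 and Txn2 had 0.10 and 0.19 and that for Txnrd2 had -0.38. Averaging the probe sets of a gene turned the sign for Txn1 (0.035), Txn2 (-0.083) and Txnrd1 (0.022). The signs of these genes thus depend on the probe set read. The number of arrays limits what could be called: in simulated data made from them, a log2 shift of 0.5 was called in 6.87% of genes given it, and a log2 shift of 1 in 56.7%.

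Oxidants are known to raise Txnrd1, Prdx1 and Srxn1 through the transcription factor Nrf2, which binds the antioxidant response element. The letters of its core, TGACNNNGC, were searched on both strands of the RefSeq promoter windows (GRCm38.p6, 250 bases before to 50 after each start). All 7 measured members had a window, and Txnrd1 alone held the letters, in 1 of its 3 windows. Over the measured members this was 1 of 9 windows (11.1%), near the 12.4% of all 32851 windows. Outside the measured members, Prdx1 and Srxn1 held them too. The stretches of Txnrd1 and Prdx1 are shown because these are the genes with the element's letters among the 9 members with a window. Prdx6 had no window and was not searched. The letters are in capitals and run on the strand opposite to the gene in both. The match begins 92 bases before the start of that Txnrd1 transcript and 133 bases before that of Prdx1. A match of letters is a description and not a site.
Txnrd1, chr10:82859089-82859147, + strand: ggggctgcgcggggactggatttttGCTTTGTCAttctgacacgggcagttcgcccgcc
Prdx1, chr4:116685441-116685499, + strand: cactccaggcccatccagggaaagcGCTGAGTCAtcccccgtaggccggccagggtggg

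The other genes of the pathway gave 0 calls. In 4 lists 48 genes were measured of 48 listed, 29 of them higher and 19 lower in high-ROS CMP by their means, where 54% of all genes were higher. At an unadjusted p under 0.05 there were 3 of 48, against 7.81% of all genes, and 8 of 48 had groups that did not overlap, against 13.4%. Values of these genes are from the test of 1 probe set per gene.

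Partners and regulators of thioredoxin (15 genes) had 8 higher and 7 lower, 0 called, and a median log2 difference of 0.03. Txnip, the protein that binds thioredoxin and blocks it, had 1617, 1518 and 1855 in low-ROS and 1670, 1265 and 1257 in high-ROS CMP, a log2 difference of -0.26 (SE 0.132, adjusted p = 0.666). Its high-ROS replicate 1 lay within the low-ROS range and the other two high-ROS arrays below it, and the second probe set gave -0.23. Apex1, a DNA repair nuclease through which thioredoxin acts on transcription factors, had 978, 869.6 and 833 in low-ROS and 1239, 1056 and 1085 in high-ROS CMP. Its groups did not overlap on this probe set or on 1456079_x_at, and overlapped on 1416135_at. The log2 differences were 0.33 (SE 0.118, adjusted p = 0.568), 0.29 and 0.06.

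Txndc9, a thioredoxin-like protein, had a log2 difference of 0.27 (SE 0.133), without overlap, and 0.08 and 0.10 on its other probe sets. Srxn1, sulfiredoxin, which repairs over-oxidised peroxiredoxins, was near background on all of its 4 probe sets, with array signals between 11.8 and 59.5, and had a log2 difference of -0.08 (SE 0.233). Txnrd3, the third reductase, was dim as well, at 46.8 ± 2.51 and 63.3 ± 18.0 (SD, n = 3), with a log2 difference of 0.31 (SE 0.231), which was 0.18 without high-ROS replicate 3.

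Enzymes that draw electrons from thioredoxin (7 genes) had 4 higher and 3 lower, 0 called, and a median of 0.03. Msrb1, a selenoprotein that repairs oxidised methionine, had 2300.3, 2447 and 2262 in low-ROS and 2012, 2166 and 1480 in high-ROS CMP. The groups did not overlap, and the lowest signal stood on high-ROS replicate 3. The log2 difference was -0.32 (SE 0.133, adjusted p = 0.606), and it was -0.16 without that array and -0.07 once the Gapdh ratio entered the fit. Msra, which repairs the other form of oxidised methionine, had 0.13 (SE 0.168), and Rrm1, the large subunit of ribonucleotide reductase, -0.06 (SE 0.108).

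Thioredoxin-fold proteins of membranes and the reticulum (18 genes), which include the protein disulfide isomerases that work beside Prdx4, had 13 higher and 5 lower, 0 called, and a median of 0.05. Tmx2, a membrane thioredoxin-like protein, had 444, 483 and 493 in low-ROS and 559.7, 619 and 908 in high-ROS CMP, a log2 difference of 0.51 (SE 0.174, adjusted p = 0.568). These groups did not overlap, with high-ROS replicate 3 far above the others. Without that array the difference was 0.31, with the Gapdh ratio in the fit 0.28, and its second probe set had -0.26 (SE 0.191). Txndc12 had 0.44 (SE 0.211), with low-ROS replicate 1 the lowest array at 164 and a difference of 0.18 without it, and Pdia6, a disulfide isomerase, had 0.19 (SE 0.113), both without overlap.

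Factors that build selenocysteine into proteins such as the thioredoxin reductases (8 genes) had 4 higher and 4 lower, 0 called, and a median of 0.02. Sephs2, which makes the selenium donor, had 2192, 2242 and 2208 in low-ROS and 1903, 2145 and 1890.4 in high-ROS CMP, a log2 difference of -0.16 (SE 0.0917, adjusted p = 0.698). The groups did not overlap there, and its other probe sets had -0.03 and 0.01. Pstk and Eefsec, 2 further factors of this route, had 0.35 (SE 0.222) and 0.23 (SE 0.2105). Pstk had 0.16 without high-ROS replicate 3 and 0.014 with the Gapdh ratio in the fit, and Eefsec had 0.10 without low-ROS replicate 1.

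**Figure D3:**
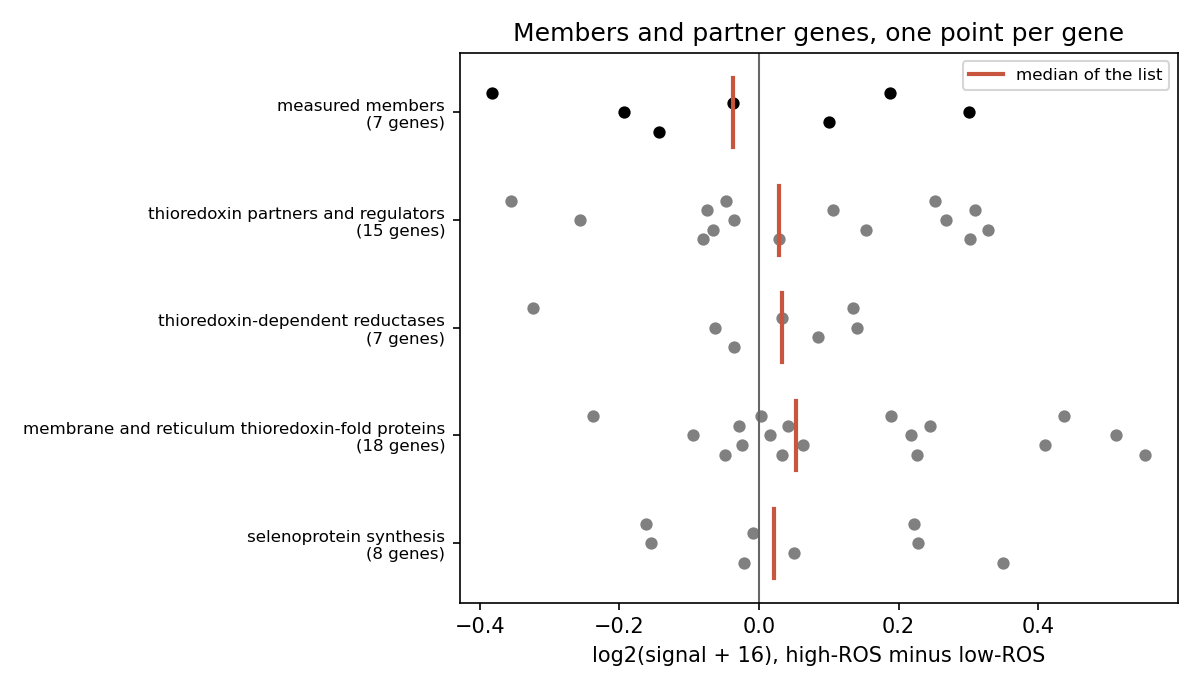
Log2 difference, high-ROS minus low-ROS, of the 7 measured members and of the 4 partner lists, 1 point per gene from the probe set that stood for it; red bars are the medians of the lists, between -0.04 and 0.05. Points of every list lie on both sides of 0.

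Over the 6 arrays, the genes whose pattern was most like the mean of the 7 members (each centred over the arrays) were Pdlim1, Enc1 and Srxn1, each with a Pearson r of 0.988. These values share the same arrays and scaling, and 21 genes had an r over 0.95. The 3 genes were picked for the highest r. How many genes would reach such an r by chance with 6 arrays was not tested. No shared regulation can therefore be read from these r values. Srxn1 was also near background on its probe set, with array signals between 30.9 and 59.5. The members' mean was lowest on high-ROS replicate 1, at -0.09, and highest on low-ROS replicate 2, at 0.07, in log2 units.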

How the data were processed

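Total RNA of sorted CMP was amplified and labelled with the NuGEN Ovation Biotin system, per the labels' protocols. The deposited table holds, for every array, 1 linear intensity for each probe set; the authors' summary and scaling steps are not given in the sources used here. Genes were named from the platform annotation: of 45101 probe sets, 64 were controls, 34945 had 1 symbol, 932 several, and 9160 are unnamed here. The probe set with the highest mean log2 value stood for its gene.

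A pseudocount of 16 was added before log2, with no further normalization. Both groups were compared in limma 3.58.1 (R 4.3.3; lmFit, eBayes with a mean-variance trend, 2-sided, 4 residual degrees of freedom, 95% intervals), over all genes and, separately, over all single-symbol probe sets, with a threshold of 0.05. An exact permutation test of 3 against 3 cannot go below p = 0.1, so none is given.

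The named genes were all members, from each list the 3 genes of smallest unadjusted p, Txnip, Srxn1, Txnrd3 and the 3 most alike genes. Apart from Slc4a1, Epor, Pf4, Itga2b, Jchain, Hba-a1, S100a8, Ltf, Ngp, Gata2, Kit, Csf1r and Ms4a6c, no gene is named with values outside that rule. These exceptions were chosen after their values were seen. Members and lists were chosen with earlier results of these data known. The fit was tested on simulated data. Alternatives (trend, dim genes, quantile normalization, mean of probe sets, replicate block, array weights, pseudocount, left-out arrays, Gapdh covariate) are in the closing section. The number of arrays limits the precision.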

Additional observations from a re-analysis of the deposited data

Results flagged for a closer look

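The probe sets that carry the symbols of both Prdx1 and its pseudogene Gm21399 lie outside the comparisons above, and they held signal far above the median of all probe sets. Their reading cannot be assigned to either name. All 5 had a higher mean in high-ROS CMP, and 4 of 5 had groups that did not overlap, with high-ROS above low-ROS, against 7.18% of all named probe sets. When all 35877 named probe sets were tested, an addition made after seeing the data, 0 of 5 passed, against 0.0223%. At an unadjusted p under 0.05 there were 4 of 5 (limma). The share over all named probe sets at that level was not counted. Over the 34945 single-symbol probe sets, in their own test, it was 7.31%.

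The signals of 1434731_x_at were 2529, 2507 and 2351 on low-ROS replicates 1 to 3 and 3020.1, 2791 and 3349 on high-ROS replicates 1 to 3, a log2 difference of 0.31 (SE 0.0959, adjusted p = 0.643). The log2 difference was 0.29 for 1437014_x_at, with 1975 to 2203 in low-ROS and 2461 to 2828 in high-ROS CMP. It was 0.25 for 1436691_x_at, with 2889 to 3363 and then 3557 to 4012, and 0.24 for 1433866_x_at, with 2032 to 2335 and then 2450 to 2756. On each of these 4 the highest array was high-ROS replicate 3. The remaining one, 1416000_a_at, had overlapping groups, 1008 to 1349 and then 1152 to 1552, and a log2 difference of 0.16. These probe sets read the same transcripts and are not independent of each other. Under 10 alternatives all 5 stayed positive, though dropping the trend or adding the replicate block cannot turn a sign here. The difference of 1434731_x_at ran from 0.16, with the Gapdh ratio as a covariate, to 0.37, and its adjusted p from 0.409 to 0.860. That of 1416000_a_at ran from 0.03, without low-ROS replicate 1, to 0.46, with the Gapdh ratio as a covariate.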

How the results depend on the processing

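No member passed (0 of 7 genes, 0 of 19 probe sets) under any of the alternatives run, with 0 or 1 genes and 0 to 4 probe sets at an unadjusted p under 0.05 (limma). Of 584 alternative values of single genes and probe sets, 553 kept their direction and their side of the threshold, and 31 turned sign without passing. The cause was not tested. Part of the 584 could not turn sign. Dropping the trend or the dim genes, the replicate block and the threshold of 0.1 all left the log2 difference itself unchanged. The number of genes called over all genes, 10, was 0 without the mean-variance trend (1351 at an unadjusted p under 0.05), 16 among genes above the median signal (where Srxn1 and Txnrd3 dropped out), 30 with array weights, 4 with a pseudocount of 64, 3 with the Gapdh covariate, 17 at an adjusted p of 0.1, and 1 to 6 when 1 array was left out.

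Averaging the probe sets of a gene gave log2 differences of 0.035 for Txn1, -0.083 for Txn2, 0.022 for Txnrd1 and 0.016 for Rrm1, a median of 0.022 for the members and of -0.056 for selenoprotein synthesis. Quantile normalization gave 0.018 for Txn1, on 1416119_at. Array weights gave 0.0029 for Rrm1 and a median of 0.096 for selenoprotein synthesis. The Gapdh covariate, added after seeing the data for single probe sets, gave 0.027 for Txn1 (1416119_at), -0.045 and 0.049 for Txn2 (1421557_x_at and 1455640_a_at), 0.026 for Prdx4 1431269_at, -0.23 and -0.77 for Txnrd2 (1429972_s_at and 1429971_at), -0.45 for Txn2 1452782_a_at, -0.00038 for Txnrd3, 0.094 for Rrm1 and a median of 0.21 for the membrane and reticulum list.

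With 1 array left out, the median ran from -0.10 to -0.00081 for the members, 0.083 to 0.22 for thioredoxin partners, -0.0497 to 0.057 for thioredoxin-dependent reductases, 0.028 to 0.16 for the membrane and reticulum list and -0.021 to 0.064 for selenoprotein synthesis. The log2 difference ran from -0.17 to 0.078 for Srxn1, -0.12 to 0.056 for Rrm1, -0.048 to 0.25 for Msra, -0.077 to 0.084 for Prdx4 1431269_at, -0.025 to 0.24 for Txn1 1456734_at, -0.077 to 0.10 for Txnrd1 1424486_a_at, -0.012 to 0.32 for Txnrd1 1424487_x_at, -0.41 to 0.071 for Txnrd2 1429971_at and -0.047 to 0.19 for Txnrd2 1429972_s_at.

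The replicate numbers were not taken as pairs: deviations of equally numbered arrays correlated at 0.119, 0.0966 and 0.0028, and 4 of 6 arrays correlated best with their own number. The replicate block called 4 genes over all genes and 0 members, with 4 of 19 member probe sets at an unadjusted p under 0.05 (limma). Tested as genes, 0 of 7 members reached that level under the block. Over all 18193 genes 1613 did, where 1421 did without the block.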
